A study of Mus musculus with 2 samples.

Results

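Mir322, Mir503, Mir351, Mir542 and Mir450b are 5 miRNA genes of a single locus on the mouse X chromosome. They were taken by gene identifier from the annotation, without use of their read counts, and all 5 were found among the 1973 miRNA genes counted. The data are microRNA-seq read counts from embryonic facial prominence, the tissue that builds the face and jaws, dissected from healthy mouse embryos of strain B6NCrl at embryonic day 15.5, with no treatment named. Tissue of 78 embryos was pooled for replicate 1 and of 62 embryos for replicate 2, with males and females mixed in each pool. These 2 biological replicates form 1 group, so the design allows a description of levels and a comparison of replicate 2 with replicate 1.

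A miRNA gene is transcribed as part of a longer RNA that folds into hairpins. Each hairpin is cut to a short duplex whose arms, named 5p and 3p, are the mature miRNAs, and a mature miRNA recognises target mRNAs mainly through its seed, bases 2 to 8 from the 5′ end. miR-322 (called miR-424 in human) and miR-503 are known for restraining the cell cycle through targets such as cyclin D1 and Cdc25a, and for promoting the exit of myoblasts from the cycle during muscle differentiation. miR-351 carries the seed of the miR-125 family, while miR-542 and miR-450b are less studied products of the same locus. Hairpin counts hold the reads of both arms together, so no value below belongs to a single arm.

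The hairpins are shown because the levels below differ widely between genes that lie side by side. Sequences are those of RefSeq on build GRCm38.p6, read 5′ to 3′, with the mature arms in capitals. A hairpin was at hand for 4 of the 5 genes and mature sequences for all 5. For Mir351 the mature arms are given with their seeds in capitals.
Mir322 hairpin, chrX:53054255-53054349, minus strand: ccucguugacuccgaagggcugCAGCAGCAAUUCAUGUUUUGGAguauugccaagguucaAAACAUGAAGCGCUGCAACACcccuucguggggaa
Mir503 hairpin, chrX:53053984-53054054, minus strand: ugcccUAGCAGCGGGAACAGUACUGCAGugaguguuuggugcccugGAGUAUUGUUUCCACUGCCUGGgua
miR-351-5p, chrX:53053315-53053338, minus strand: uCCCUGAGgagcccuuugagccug
miR-351-3p, chrX:53053276-53053296, minus strand: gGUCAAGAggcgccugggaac
Mir542 hairpin, chrX:53049403-53049487, minus strand: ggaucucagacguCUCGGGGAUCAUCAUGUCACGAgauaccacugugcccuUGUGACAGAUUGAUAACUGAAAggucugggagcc
Mir450b hairpin, chrX:53047997-53048078, minus strand: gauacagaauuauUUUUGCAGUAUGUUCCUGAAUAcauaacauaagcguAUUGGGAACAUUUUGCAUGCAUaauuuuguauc

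In the direction of transcription the order is Mir322, Mir503, Mir351, Mir542, Mir450-2, Mir450-1 and Mir450b. Mir450-2 and Mir450-1 are 2 further counted hairpins of the locus outside the 5 genes, and the 7 hairpins span 6353 bases. Mir503 begins 200 bases after Mir322, and Mir351 (chrX:53053255-53053353) begins 630 bases after Mir503. The largest gap, 3767 bases, separates Mir351 from Mir542. Mir450-2 lies 1035 bases further on, and only 54 and 75 bases separate the last 3 hairpins. None of the 7 overlaps another gene of GENCODE M21. The noncoding gene Gm28730 (chrX:53051194-53053159) lies in the largest gap on the same strand, and C430049B03Rik ends 696 bases upstream of Mir322. RefSeq draws C430049B03Rik, a long noncoding RNA gene, longer (chrX:53053112-53057190), with Mir322, Mir503 and Mir351 inside it and the other 4 hairpins outside. The nearest other annotated miRNA gene, Mir106a, is 305429 bases away.

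The seeds divide the cluster and tie it to genes elsewhere. They are grouped here with the seed in capitals, because relatives that share a seed are compared below.
miR-322-5p: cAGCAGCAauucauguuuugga
miR-15a-5p: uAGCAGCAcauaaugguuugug
miR-15b-5p: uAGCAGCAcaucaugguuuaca
miR-16-5p: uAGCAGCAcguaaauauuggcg
miR-195a-5p: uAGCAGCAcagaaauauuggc
miR-503-5p: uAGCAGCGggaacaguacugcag
miR-351-5p: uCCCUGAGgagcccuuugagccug
miR-125a-5p: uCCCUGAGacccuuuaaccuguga
miR-125b-5p: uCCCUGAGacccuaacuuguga
miR-542-3p: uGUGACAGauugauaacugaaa
miR-450b-5p: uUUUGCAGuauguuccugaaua
miR-450a-5p: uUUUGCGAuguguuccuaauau
miR-450b-3p: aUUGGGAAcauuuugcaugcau
miR-450a-1-3p: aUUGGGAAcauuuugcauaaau
Counted from the 5′ end, the seed of miR-503-5p differs from that of miR-322-5p by A8G, and over the whole sequences 11 of 22 compared positions are equal. miR-322-5p and miR-15a-5p are equal at 15 of 22 positions. miR-351-5p and miR-125a-5p are equal at 10 of 24 positions and first differ at G9A, directly after the seed. miR-450b-3p and miR-450a-1-3p are equal at 20 of 22 positions, whereas the seeds of miR-450b-5p and miR-450a-5p differ by A7G and G8A.

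None of the 10 mature sequences of the 5 genes lies in another hairpin of the RefSeq table, and no hairpin of Mir322, Mir503, Mir542 or Mir450b (nor a mature arm of Mir351) shares a stretch of 20 bases with another hairpin. This bears on the counts because reads that mapped to several places were given to no gene, and they made up 30.6% of all reads in replicate 1 and 29.7% in replicate 2. Mir450-1 and Mir450-2 both encode miR-450a-5p, so their counts leave out reads of that arm and are uncertain. A smaller limit holds for Mir450b, since miR-450b-3p and miR-450a-1-3p first differ at G19A. Reads of these arms that end before that base would fit both Mir450b and Mir450-1, and their number was not tested. Only hairpins were searched for shared stretches, not the rest of the genome. Hairpin GC content was 51.6% for Mir322, 54.9% for Mir503, 51.8% for Mir542 and 30.5% for Mir450b.

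Replicate 1 held 2978463 reads in miRNA genes and replicate 2 held 6408008. Levels are in CPM (reads per 1000000, with the library totals scaled by TMM factors), and 3 reads, the limit that a count of 0 allows, amount to 1.00 CPM in the smaller library and 0.470 CPM in the larger. The 5 genes had between 663 and 91264 reads in replicate 1 and between 1165 and 207430 in replicate 2, so all were far above the minimum of 10 reads per library set for testing. Every read of the 5 genes lay on the strand of its hairpin, and the 0 opposite-strand reads allow a share of up to 0.00262% in replicate 1 and 0.00113% in replicate 2. Of 20 listed markers of 8 tissue types, 18 were counted and 17 reached the minimum, among them the epithelial Mir203, the muscle Mir206, the cartilage Mir140 and the endothelial Mir126a. The tissue is a mixture, so fewer cells of a type and less RNA per cell cannot be told apart in any value below.

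The cluster had many reads, and most of them came from Mir322. Whether different miRNAs yield reads with equal efficiency was not tested, so levels of different genes are compared as read counts only. Together the 5 genes had 38259 CPM in the first pool and 41488 CPM in the second, a mean of 39873 ± 2283 CPM (SD, n = 2). This was 3.84% of all miRNA gene reads in replicate 1 (95% Clopper-Pearson interval 3.82 to 3.86, counting error only) and 4.13% (4.12 to 4.15) in replicate 2. Without Mir322 the sum of the other 4 genes was 8364 ± 905 CPM. Reads that mapped to several places are in none of these values, so shares and ranks here and below are of uniquely mapped reads. Genes that share a mature sequence with another hairpin can rank too low.

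Mir322, the source of miR-322-5p, had 91264 reads (30535 CPM) in replicate 1 and 207430 reads (32484 CPM) in replicate 2. By uniquely mapped reads it had rank 8 of all counted genes in replicate 1 and rank 7 in replicate 2, with a mean of 31509 ± 1378 CPM (SD, n = 2). The next gene above it in mean level, Mir335, had 40178 and 39298 CPM, above Mir322 in both libraries. The next below, Mir23a, had 31664 and 26969 CPM, so its order against Mir322 was opposite in the replicates.

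Mir351, whose 5p arm carries the miR-125 seed, was second in the cluster. It had 17033 reads (5699 CPM) in replicate 1 and 45053 reads (7055 CPM) in replicate 2, a mean of 6377 ± 959 CPM (SD, n = 2) and rank 33 by mean. Its replicate values lay further apart, relative to the mean, than those of any other of the 5 genes. Its nearest genes in mean level, Mir206 above and Mir93 below, each changed order with it between the replicates.

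Mir503 and Mir542 were close to each other. Mir503, the partner of Mir322 in cell cycle control, had 2742 reads (917 CPM) in replicate 1 and 5982 reads (937 CPM) in replicate 2, a mean of 927 ± 13.7 CPM. Mir542 had 2649 reads (886 CPM) and 5296 reads (829 CPM), a mean of 858 ± 40.3 CPM (both SD, n = 2). Mir503 was higher in both libraries, by 31.1 CPM in replicate 1 and 107 CPM in replicate 2, and the mean gap of 69.3 CPM exceeded the larger SD. In replicate 1 their shares of the cluster, given below, had overlapping counting intervals.

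Mir450b, the last hairpin of the locus, was the lowest of the 5 genes. It had 663 reads (222 CPM) in replicate 1 and 1165 reads (182 CPM) in replicate 2, a mean of 202 ± 27.8 CPM (SD, n = 2). The genes next to it in mean level, Mir185 (206 ± 9.01 CPM) and Mir330 (202 ± 21.1 CPM), differed from it by less than its SD. The 2 related hairpins beside it were lower still. Mir450-1 had 32.5 and 31.3 CPM and Mir450-2 had 17.1 and 12.5 CPM, within the limit on multi-mapping reads given above.

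The order Mir322, Mir351, Mir503, Mir542, Mir450b was the same in both libraries. In replicate 1 Mir322 exceeded Mir351 by 5.36-fold and Mir351 exceeded Mir503 by 6.21-fold, and in replicate 2 these ratios were 4.60-fold and 7.53-fold. Mir542 exceeded Mir450b by 656 CPM on average. Each of these 3 gaps was larger than the larger SD of the pair. Since a mature miRNA gives a read of about its own full length, CPM were not divided by hairpin length. On a scale of reads per 100 hairpin bases, scaled to a sum of 1000000 over all genes with an annotated length, the means were 26639 for Mir322, 5173 for Mir351, 1049 for Mir503, 811 for Mir542 and 198 for Mir450b, in the same order. Mir450b stood 138-fold below Mir322 in replicate 1 and 178-fold in replicate 2 by CPM, and both are hairpins of 1 locus on 1 strand.

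**Figure D1:**
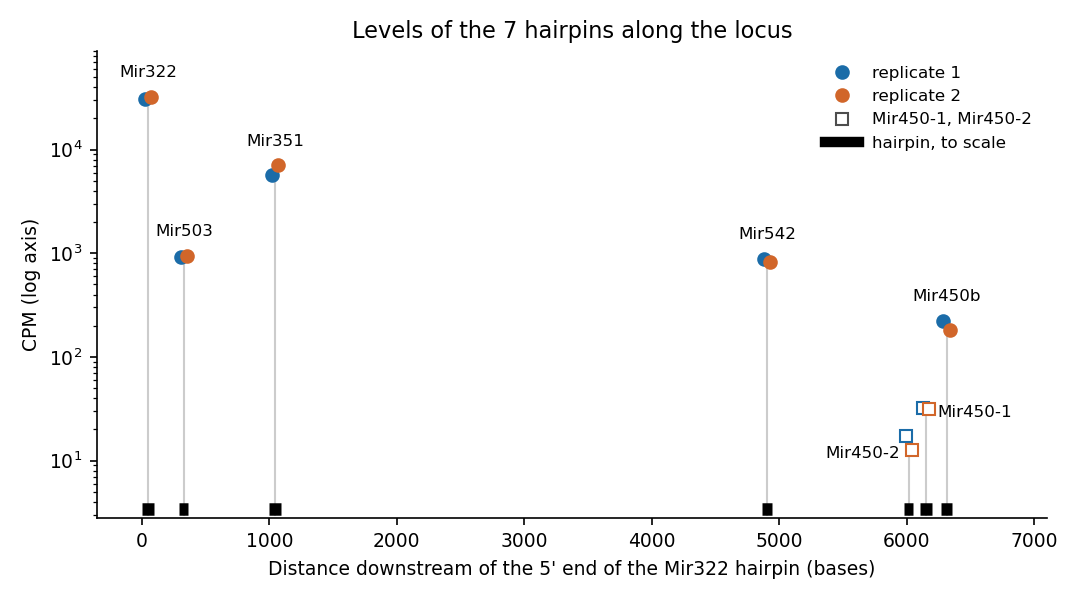
Levels (CPM, log axis) of the 7 hairpins of the locus against the distance in bases downstream of the 5′ end of the Mir322 hairpin, with a point for each replicate and black bars for the hairpins. Levels do not follow position: Mir503, 295 bases from the start, had 927 CPM on average, below Mir351 with 6377 CPM at 996 bases, and open squares mark Mir450-1 and Mir450-2, which are not among the 5 genes.

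Shares within the cluster do not depend on scaling between the libraries. Mir322 held 79.8% of the reads of the 5 genes in replicate 1 (95% Clopper-Pearson interval 79.6 to 80.0) and 78.3% in replicate 2 (78.1 to 78.5). Mir351 held 14.9% (14.7 to 15.1) in replicate 1 and 17.0% (16.9 to 17.1) in replicate 2. Its share was thus larger in replicate 2, beyond counting error, and that of Mir322 smaller.

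The minor members had shares near or below 2%. Mir503 held 2.40% (2.31 to 2.49) in replicate 1 and 2.26% (2.20 to 2.32) in replicate 2, and these intervals overlapped. Mir542 held 2.32% (2.23 to 2.41) in replicate 1 and 2.00% (1.95 to 2.05) in replicate 2. Mir450b held 0.580% (0.537 to 0.626) in replicate 1 and 0.440% (0.415 to 0.466) in replicate 2. For Mir542 and Mir450b the intervals of the libraries did not overlap, and both had the smaller share in replicate 2. The intervals cover counting error only, since reads without molecular identifiers are not independent molecules.

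**Figure D2:**
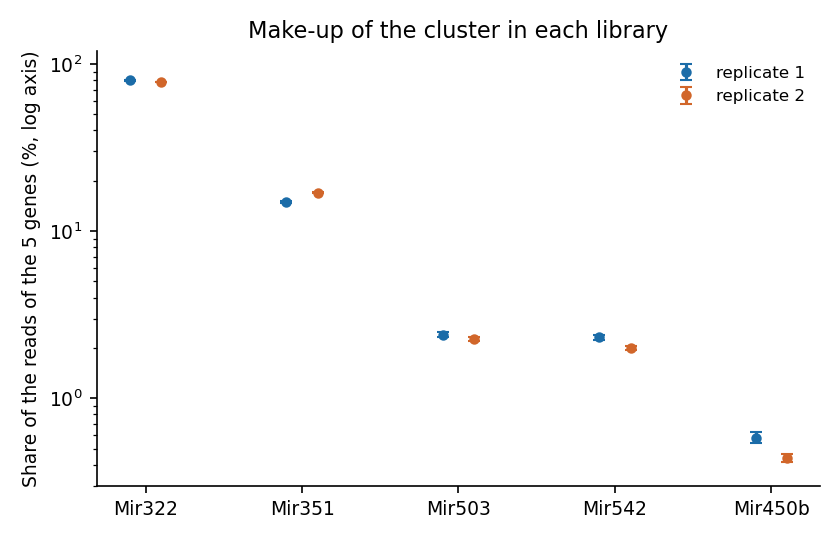
Share of each gene in the summed reads of the 5 genes (percent, log axis), with a point per replicate and bars for the 95% Clopper-Pearson interval. Mir322 held 79.8% in replicate 1 and 78.3% in replicate 2, and Mir351 is the gene whose share was larger in replicate 2.

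The replicates were then compared gene by gene, to ask how far the pools differ in this cluster. Replicate 2 had more of Mir322 and Mir351, replicate 1 had more of Mir542 and Mir450b, and Mir503 did not pass the test. Of the 5 genes 4 were called, 2 in each direction, by the exact binomial test at a Benjamini-Hochberg adjusted p under 0.05. Over all 333 tested genes it called 53.5%, with 25.8% higher in replicate 2 and 27.6% higher in replicate 1. Among the 159 tested genes at least as abundant as Mir450b it called 80.5%, so a count of 4 in 5 is near the background at this depth. With 1 library against 1 the test compares these libraries and covers counting error only.

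All 5 differences were small. Mir351 had the largest, a log2 ratio of replicate 2 over replicate 1 of 0.31 (95% interval 0.28 to 0.33, exact binomial adjusted p = 3.63e-127), or 1.24-fold. Mir322 had a log2 ratio of 0.09 (0.08 to 0.10, exact binomial adjusted p = 3.74e-54), and Mir503 one of 0.03 (−0.04 to 0.10, exact binomial adjusted p = 0.488). Mir542 stood at −0.10 (−0.16 to −0.03, exact binomial adjusted p = 0.0106) and Mir450b at −0.28 (−0.42 to −0.14, exact binomial adjusted p = 0.000184). The call for Mir542 was lost with DESeq2 size factors, at a log2 ratio of −0.07 and an exact binomial adjusted p of 0.0896.

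The median log2 ratio was 0.03 over the 5 genes and −0.02 over all tested genes. The median size of the log2 ratio was 0.10 over the 5 genes, against 0.20 over all tested genes and 0.19 over those at least as abundant as Mir450b. By size of log2 ratio Mir351 ranked 117 of 333 and Mir503 ranked 304. For Mir322 the SD between replicates was 4.37% of the mean, while counting error alone was 0.331% in replicate 1 and 0.220% in replicate 2, so the spread between the pools was larger than counting error. For Mir503 the SD of 1.48% of the mean lay between its counting errors of 1.91% in replicate 1 and 1.29% in replicate 2.

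**Figure D3:**
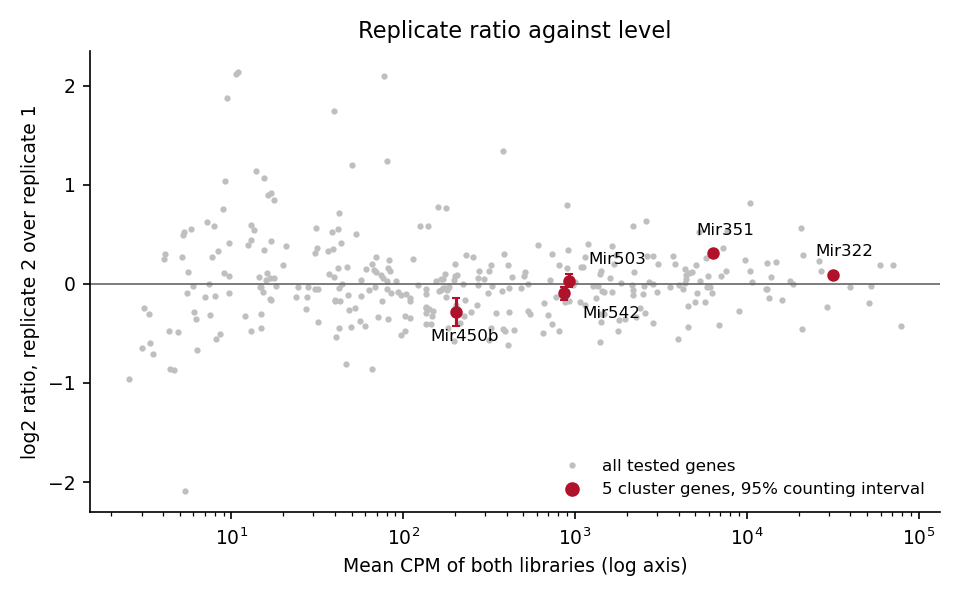
log2 ratio of replicate 2 over replicate 1 against mean CPM (log axis) for the 333 tested genes in grey and the 5 cluster genes in red, with bars for the 95% counting interval. The red points lie between −0.28 for Mir450b and 0.31 for Mir351, inside the cloud of the other genes.

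Along the locus the sign of the ratio changed at the largest gap. The 3 hairpins upstream of it, Mir322, Mir503 and Mir351, had positive log2 ratios, though Mir503 (0.03, −0.04 to 0.10) was not called. The 4 downstream had negative ones, which for Mir450-1 and Mir450-2 were −0.05 and −0.45 and were not called. The 4 downstream hairpins together held 3.02% of the reads of the locus in replicate 1 (95% Clopper-Pearson interval 2.92 to 3.12) and 2.54% (2.48 to 2.60) in replicate 2. The signs were the same with total-count scaling and with DESeq2 size factors, where Mir450-1 came nearest to 0 at −0.02 and Mir503 stood between 0.02 with total counts and 0.06 with DESeq2. Shares of single genes within the cluster, which do not depend on scaling, did not divide at the gap, since only that of Mir351 was larger in replicate 2. The division of signs was noticed in these data and has no test.

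Some markers of other cell types also differed between the pools, and members of a list did not always move together. The 3 epithelial markers summed to 124825 CPM in the first pool and 96047 CPM in the second (log2 ratio −0.38). Of these, Mir203 (−0.43) and Mir205 (−0.46) were higher in replicate 1 and Mir200c (0.13) was higher in replicate 2. The 3 counted striated muscle markers summed to 7941 and 5967 CPM (−0.41), nearly all of it Mir206, with Mir133b not called (−0.17) and Mir1a-1 at 1 and 3 reads. Mir1a-2 was listed but not counted. Reads that map to several places count for no gene, so low counts in these lists, as for Mir1a-1 and Mir199a-1, do not show a low level. Endothelial Mir126a moved the other way, with 24156 and 28414 CPM (0.23). The mesenchymal list summed to 17053 and 15326 CPM (−0.15), which followed its most abundant gene Mir214 (−0.16), while Mir199a-2 was higher in replicate 2 (0.20), Mir199a-1 was not called (0.34) and the median of the list was 0.20. The smooth muscle sum had a log2 ratio of 0.03, where Mir143 (0.03) was called higher in replicate 2 and Mir145a (−0.21) higher in replicate 1. The intervals of the leukocyte sum (−0.05, −0.11 to 0.00) and the erythroid sum (0.12, −0.02 to 0.26) included 0, with erythroid Mir451a at 0.58 and Mir144 at −0.86. Of the leukocyte genes, Mir142b (−0.19) was higher in replicate 1, Mir223 (0.12) was higher in replicate 2 and Mir150 (0.07) was not called. Mir142 was listed as well but not counted, and the values of Mir142b hold reads of both strands. Cartilage Mir140 had 13176 and 12703 CPM (−0.05). The part of cell composition in the differences of the cluster genes was not tested.

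Among genes that share its seed, Mir322 had by far the most uniquely mapped reads. The 9 counted relatives outside the cluster summed to 6117 ± 27.2 CPM (SD, n = 2), and Mir322 held 83.4% (95% Clopper-Pearson interval 83.1 to 83.6) of the family's reads in replicate 1 and 84.1% (84.0 to 84.3) in replicate 2. Mir15a, known as a growth-restraining miRNA, had 2838 and 2836 CPM, 10.8-fold and 11.5-fold below Mir322. Mir15b had 942 and 678 CPM, and Mir195a had 658 and 810 CPM. Mir16-1 (1358 and 1482 CPM) and Mir16-2 (300.4 and 329 CPM) both encode miR-16-5p, so reads of that arm map to several places and the share of Mir322 is an upper value for the family. Mir195b had 1 read in replicate 1 and none in replicate 2, and Mir6342, Mir6353 and Mir6419 had no read in either library. Mir497, which also carries this seed, is not among the counted genes. Mir497b, counted on the opposite strand over the same site, had 5252 of its 5254 reads in replicate 2 and all 2785 in replicate 1 on the strand opposite to its own, the strand of Mir497. Its level of 877 ± 77.1 CPM is not in the family sum.

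Calls among the seed relatives went in both directions, as they did over all tested genes. Of the 5 tested relatives of Mir322, Mir16-1, Mir16-2 and Mir195a were higher in replicate 2 (log2 ratios 0.13, 0.13 and 0.30), Mir15b was higher in replicate 1 (−0.47) and Mir15a did not pass (0.00, 95% interval −0.04 to 0.04). A count of 4 in 5 is again near the 80.5% called among genes at least as abundant as Mir450b. The median of these 5 was 0.13, against −0.02 over all tested genes and 0.09 for Mir322.

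Mir351 was also the most abundant counted gene of its seed family. It held 50.5% of the family's uniquely mapped reads (95% Clopper-Pearson interval 49.9 to 51.0) in replicate 1 and 55.3% (55.0 to 55.6) in replicate 2. Mir125a had 4011 and 3988 CPM, 1.42-fold below Mir351 in replicate 1 and 1.77-fold below in replicate 2. Mir125b-1 (1051 and 1183 CPM) and Mir125b-2 (534 and 533 CPM) encode the same miR-125b-5p, whose reads map to several places, so this order is that of uniquely mapped reads only. Mir6394 and Mir6367 had no read. Of the 3 tested relatives, Mir125b-1 was higher in replicate 2 (log2 ratio 0.17), while Mir125a (−0.01, −0.04 to 0.02) and Mir125b-2 (0.00, −0.09 to 0.08) did not pass. The test called 53.5% of all tested genes and 80.5% of those at least as abundant as Mir450b, and 3 genes are too few to set against these shares.

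For the other arms few relatives were found among the counted genes. Both arms of Mir503, miR-322-3p, miR-351-3p, miR-542-3p and miR-450b-5p share their seed with no RefSeq mature sequence of another counted gene. The seed of miR-450b-3p is shared by miR-450a-1-3p of Mir450-1 and by Mir6352, which had no read, and the seed of miR-542-5p by Mir6966, which had none either. Mir675, processed from the imprinted growth regulator H19 and listed for its link to growth, had 66.2 and 72.0 CPM, 461-fold and 451-fold below Mir322.

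**Figure D4:**
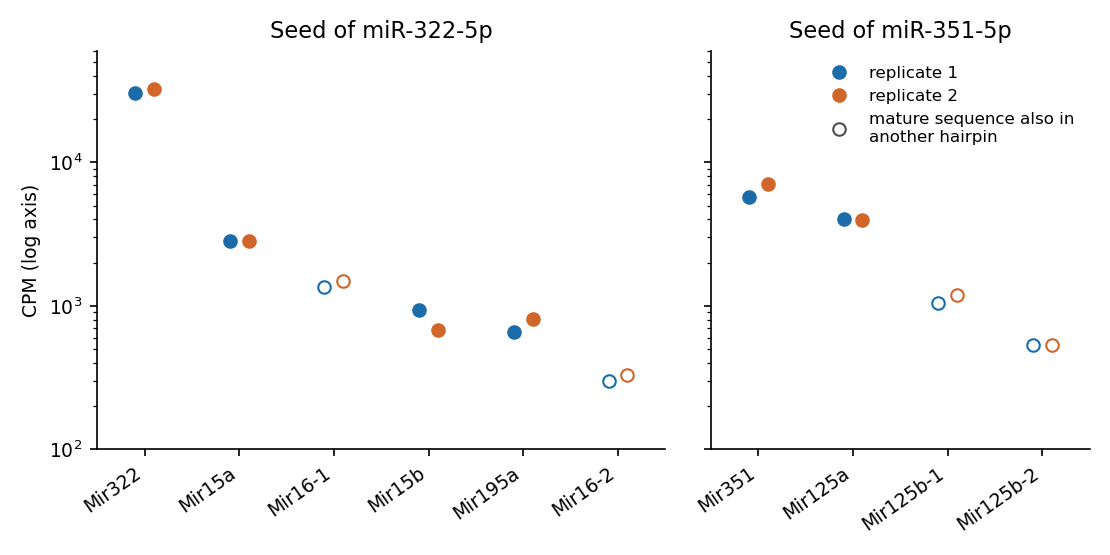
CPM (log axis) in each replicate of the tested genes that share the seed of miR-322-5p (left) and of miR-351-5p (right), with open circles where the mature sequence also lies in another hairpin. Mir322 stands above every relative shown, with Mir15a next at 2838 and 2836 CPM, and Mir351 stands above Mir125a in both replicates.

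By uniquely mapped reads the cluster also led the miRNA genes of the X chromosome. Its 5 genes held 57.9% (95% Clopper-Pearson interval 57.7 to 58.1) of the reads of the 120 counted X-linked genes in replicate 1 and 59.2% (59.0 to 59.3) in replicate 2. Mir322 was the highest of them, Mir652 (7251 and 7927 CPM) and Mir98 (6889 and 7284 CPM) followed, and Mir351 had rank 4. The 115 other X-linked genes include Mir450-1 and Mir450-2 of the same locus, both tested and not called. All 115 summed to 28209 ± 596 CPM with a log2 ratio of 0.04, beside 0.12 for the sum of the cluster. Of the 32 of them tested, 15 did not pass, 10 were called toward replicate 2 and 7 toward replicate 1, a share of calls near the 53.5% over all tested genes. The share of male and female embryos in each pool is not given in the labels, and its part in these values was not tested.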

How the data were processed

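For every library the authors deposited a table of unnormalised counts by miRNA gene (mm10, GENCODE M4, per the deposited file list). The aligner and counter were not given in the sources used here. Of the 3 counts per gene (sense, opposite strand, and both) the last was used, and lines naming no gene (unmapped, multi-mapping and outside genes) stayed out of library sizes and were 49.0% of the reads in replicate 1 and 54.5% in replicate 2.

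Names and positions came from GENCODE M21 on the same build, matched without version for 1894 of 1973 genes, and sequences from RefSeq (GRCm38.p6), which held mature sequences for 916. CPM used TMM factors of edgeR 4.0.16 in R 4.3.3, computed on genes with at least 10 reads in each library. Those 333 genes were compared by a two-sided exact binomial test with Benjamini-Hochberg adjustment across all tested genes and a threshold of 0.05. An exact permutation of 2 libraries cannot go below p = 0.5. On simulated counts for replicate 2 against replicate 1 with counting noise only (348 genes tested), the test called 68% of 50 genes changed 1.25-fold, 90% of 50 changed 1.5-fold and 2.01% of 149 unchanged genes. DESeq2 1.42.0 size factors were an alternative. Python 3.11.15, pandas 2.3.3, scipy 1.17.1 and matplotlib 3.10.9 were used.

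The members, lists and tests were chosen with earlier results of these data known. The rule for the members itself used gene identifiers and no read counts. Named genes were the 5 members, the other hairpins of the locus, counted genes sharing a seed with a member, and the genes just above and below each member in mean CPM.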

Additional observations from a re-analysis of the deposited data

How the results depend on the processing

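Both calls toward replicate 2 and the call for Mir450b kept their side of the threshold under every scaling, filter and strand setting run. Of the 5 genes 4 were called in each of these settings except with DESeq2 size factors, where 3 were. The sum of the cluster was 43300 CPM when the totals excluded Mir203, the most abundant gene, and 33869 on the scale of reads per 100 hairpin bases, an alternative chosen after seeing the data. It ranged from 38259 to 41488 CPM with 1 replicate left out. The log2 ratio of the sum was 0.12, 0.11 with total-count scaling and 0.15 with DESeq2 size factors. With either replicate left out the shares ranged from 78.3% to 79.8% for Mir322, 14.9% to 17.0% for Mir351, 2.26% to 2.40% for Mir503, 2.00% to 2.32% for Mir542 and 0.440% to 0.580% for Mir450b. The background share depends on the filter: 178 of 333 genes were called with at least 10 reads per library, 186 of 708 with no filter and 166 of 247 with at least 100 reads, while 4 of the 5 genes were called under each. No paired analysis was possible because there is 1 group. Leaving out a library leaves 1, which gives a level but no ratio and no test. The ranges with a replicate left out are therefore the replicate values already given above, not a further check. Depth limits Mir450-1 and Mir450-2, with 97 and 51 reads in replicate 1.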

Other observations

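The cluster was set beside the other groups of neighbouring hairpins in the table, a comparison chosen after the data were seen. Hairpins on 1 strand with gaps of at most 10000 bases were joined, and 14 groups had at least 3 tested hairpins. Their levels and shares are of uniquely mapped reads. By summed level the 7 hairpins around Mir322, at 39920 CPM, came second to the group led by Mir411 in the Dlk1-Dio3 locus, at 50180 CPM. By the share of the leading hairpin Mir322 had rank 3, with 79.7% of its group's reads in replicate 1 and 78.2% in replicate 2. Only Mir449a (99.8% and 99.7%) and Mir23a (97.3% in each) led their groups more strongly, and each of those groups has 3 tested hairpins. The ratio of the highest to the lowest mean was 2130-fold, between Mir322 and Mir450-2, whose count lacks the reads of miR-450a-5p. This ratio was not ranked, since all 7 hairpins of the locus were tested but only 29 of 34 in the group of Mir411 and 9 of 107 in that of Mir467d. The range of log2 replicate ratios within the group was 0.75 over tested hairpins, with rank 5 of 14.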
